A study of Mus musculus with 9 samples.

Results

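Immunoglobulin gene segments were described in RNA-seq of mouse aorta. A segment was included when GENCODE mouse release 21 lists it as an immunoglobulin variable (V), constant (C), diversity (D) or joining (J) gene, pseudogenes left out, and when its value reached 1 FPKM (reads scaled by exon length and library depth) in at least 1 library. This gave 165 segments of the 33293 identifiers measured. They comprised 152 V segments (76 heavy, 73 kappa and 3 lambda), 12 C segments (7 heavy, 1 kappa and 4 lambda) and 1 J segment, Ighj2. The annotation holds 264 such segments, and the table has 220 of them. Of the rest in the table, 55 stayed below the threshold, among them Ighe, the constant gene of IgE, at no more than 0.275 FPKM. The 19 D segments, 13 further J segments and 12 further V segments are not analysed here.

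The study compared 5 aortas of C57BL/6J mice, wild type for Apoe (WT 1 to WT 5), with 4 aortas of Apoe-knockout mice (Apoe_KO 1 to Apoe_KO 4), all from males aged 7 to 8 weeks on a normal chow diet. Apoe encodes apolipoprotein E, a ligand for the clearance of lipoprotein remnants, and mice that lack it are a common model of atherosclerosis. The labels give no substrain or littermate information for the knockout, and no other allele or agent. Apoe itself lay at 513.0 to 642.9 FPKM in WT and at 5.64 to 6.55 FPKM in Apoe_KO. The summed level of 6 smooth muscle genes (Myh11, Acta2, Tagln, Cnn1, Smtn and Myocd) was 4654 to 6038 FPKM in all 9 libraries, so the defining markers of the vessel wall were present in each. The labels describe removal of ribosomal RNA in the protocol and polyA RNA as the molecule, which do not match. Nothing states whether the libraries came from separate animals, so the p-values measure only the spread between these samples.

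An antibody is built of paired heavy and light chains. In each developing B cell, V, D and J segments of the heavy locus are cut and joined, as are V and J segments of the kappa or lambda light locus, so that 1 B cell and its offspring use 1 V segment per chain. The heavy constant gene sets the isotype: Ighm (IgM) and Ighd (IgD) are used by naive B cells, and switching replaces them by an IgG gene (Ighg3, Ighg1, Ighg2b or Ighg2c), Ighe or Igha. Plasma cells, the secreting end stage, hold far more immunoglobulin mRNA per cell than naive B cells do. In the aorta, B cells are found mainly in the adventitia and in the fat and lymphoid tissue beside the vessel.

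The sequences below show what tells the V segments apart and what they share. Each is the last 75 bases of the reference transcript, 5′ to 3′, from GENCODE mouse release 21 on GRCm38, not from the libraries. Capitals mark the first match to TANTNNTGN, which covers the codons around the conserved second cysteine, just ahead of the stretch where V is joined to D or J. The heavy segments shown are those that led or stood second in WT 2 and in Apoe_KO 4, Ighv1-80, which led Apoe_KO 2, and Ighv11-2 of B-1 cells.
Ighv1-74: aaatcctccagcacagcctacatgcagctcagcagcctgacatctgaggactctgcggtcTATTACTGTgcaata
Ighv1-26: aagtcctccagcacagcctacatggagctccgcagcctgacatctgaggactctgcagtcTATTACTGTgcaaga
Ighv1-81: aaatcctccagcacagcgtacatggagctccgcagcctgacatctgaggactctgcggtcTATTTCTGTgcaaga
Ighv1-53: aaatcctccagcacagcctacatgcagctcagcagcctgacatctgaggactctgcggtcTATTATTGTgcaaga
Ighv1-80: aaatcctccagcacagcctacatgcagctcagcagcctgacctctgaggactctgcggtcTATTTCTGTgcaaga
Ighv11-2: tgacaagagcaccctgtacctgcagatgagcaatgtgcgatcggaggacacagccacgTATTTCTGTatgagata
The light chain segments shown are the first and second kappa segments of WT 2 and of Apoe_KO 2, the first of Apoe_KO 4, the B-1 segment Igkv14-126 and the lambda pair.
Igkv4-72: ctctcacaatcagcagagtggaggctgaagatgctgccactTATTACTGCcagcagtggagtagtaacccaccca
Igkv9-124: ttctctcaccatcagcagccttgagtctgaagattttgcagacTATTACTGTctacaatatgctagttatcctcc
Igkv1-135: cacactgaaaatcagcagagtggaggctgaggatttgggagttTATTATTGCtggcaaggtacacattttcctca
Igkv1-117: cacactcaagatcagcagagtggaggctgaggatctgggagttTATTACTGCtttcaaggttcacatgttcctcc
Igkv10-94: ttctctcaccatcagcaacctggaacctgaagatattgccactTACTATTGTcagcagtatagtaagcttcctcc
Igkv14-126: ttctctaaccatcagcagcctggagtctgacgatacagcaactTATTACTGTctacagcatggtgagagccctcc
Iglv1: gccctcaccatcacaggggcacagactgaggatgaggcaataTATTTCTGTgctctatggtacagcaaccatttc
Iglv2: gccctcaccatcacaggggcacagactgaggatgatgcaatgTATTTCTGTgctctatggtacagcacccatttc
The motif was searched for on both strands of the last 75 bases. It was found in 150 of the 152 V segments (98.7%), always on the sense strand, against 15.1% of the 140741 annotated transcripts of at least 75 bases (7.70% on the sense strand). The only J segment in the set, Ighj2, is shown because its tryptophan and glycine codons, in capitals, lie on the other side of the join.
Ighj2: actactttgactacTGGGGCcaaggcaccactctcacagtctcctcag
The heavy V segments lie on chromosome 12, with Ighv1-74 at chr12:115802648-115803080 and Ighv1-81 at chr12:115920279-115920712, both on the minus strand. The kappa segments lie on chromosome 6, with Igkv4-72 at chr6:69226854-69227433 on the minus strand and Igkv1-117 at chr6:68121046-68121827 on the plus strand.

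How far near-identical copies could trade reads was measured from these reference sequences. Over the V transcripts, a median of 23.0% of the 50-base windows also occurred in another annotated immunoglobulin segment; 25 V segments shared none and 19 shared over 50%. Igkv1-117 and Igkv1-110 were 97.5% identical, Iglv1 and Iglv2 96.7%, Iglc2 and Iglc3 95.6%, Igkv10-94 and Igkv10-96 95.4%, and Igkv9-124 and Igkv9-120 95.2%. The split between the members of each pair is uncertain. Ighg2b and Ighg2c were 87.8% identical. By gene start and end, Igkc overlaps the lincRNA Gm30211 on the same strand, and Iglc1, Iglc3 and Iglv1 overlap the antisense gene 2010309G21Rik. Whether exons overlap was not examined. Whether counting used strand, which bears on the antisense pairs alone, is unknown here. How far the genes of these pairs share reads was not tested.

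Libraries WT 2 and Apoe_KO 4 stood apart, 1 in each genotype. The summed level of the 165 segments was 7787 FPKM in WT 2 and 1849 FPKM in Apoe_KO 4, and it lay between 50.9 and 154.4 FPKM, with a median of 101.6, in the other 7 libraries. That was 2.43% and 0.590% of all FPKM in the pair and 0.0169% to 0.0463% in the others. The highest value of a segment was in WT 2 for 88 of the 165 and in Apoe_KO 4 for 72, so that these libraries chose most of the members; with both left out, 53 segments (44 V, 8 C and Ighj2) would have reached 1 FPKM. The number of members at or above 1 FPKM was 24, 142, 18, 16 and 14 in WT 1 to WT 5 and 8, 18, 9 and 144 in Apoe_KO 1 to Apoe_KO 4. Just inside the threshold lay Ighv15-2 at 1.07 FPKM, Ighv9-1 at 1.09 and Ighv3-1 at 1.09. Just outside it lay Ighv1-11 at 0.931 FPKM, Igkv14-130 at 0.926 and Ighv5-2 at 0.926, and all 6 of these values rested on 6 or 7 reads in Apoe_KO 4. The members were chosen by their highest FPKM over these same 9 libraries, so their levels are given as a description. Depth was 17.0 to 19.8 M reads per library, at which 1 read on 350 bases is worth 0.145 to 0.168 FPKM.

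The constant genes show what kinds of antibody message each aorta held. Igkc, the only kappa constant gene (chr6:70726435-70726966), was the most abundant member in WT 2 and in Apoe_KO 4. Its level was 21.2, 1977, 17.1, 23.7 and 8.28 FPKM in WT 1 to WT 5 and 14.4, 31.6, 9.88 and 396 FPKM in Apoe_KO 1 to Apoe_KO 4. WT 2 stood 116-fold and Apoe_KO 4 23.2-fold above the median of the other 7, whose genotypes overlapped.

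Ighm, the IgM constant gene (chr12:113418558-113422730), was 30.6, 251.9, 27.0, 29.0 and 20.3 FPKM in WT 1 to WT 5 and 13.4, 27.5, 13.1 and 226.3 FPKM in Apoe_KO 1 to Apoe_KO 4. WT 2 and Apoe_KO 4 were close to each other and 9.32-fold and 8.38-fold above the median of the rest. Ighd, made from the same primary transcript as Ighm in naive B cells, was 1.89, 55.9, 1.93, 0.770 and 0.396 FPKM in WT and 0.701, 1.02, 0.699 and 69.6 FPKM in Apoe_KO. Here Apoe_KO 4 was the highest library and WT 2 the next. Igha, the IgA gene of mucosal tissues, was 2.48, 17.5, 1.69, 2.37 and 0.524 FPKM in WT and 0.960, 1.17, 1.31 and 20.7 FPKM in Apoe_KO.

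The IgG genes separated WT 2 from Apoe_KO 4. Ighg2c, the IgG2 gene that C57BL/6 mice carry in place of Ighg2a, was 1.07, 465.7, 0.721, 0.158 and 0.446 FPKM in WT and 0.695, 0.244, 1.16 and 61.0 FPKM in Apoe_KO. WT 2 was thus 7.64-fold above Apoe_KO 4, which itself was 87.7-fold above the median of the other 7. Ighg2b was 153.4 FPKM in WT 2, 33.7 in Apoe_KO 4 and 0.0401 to 0.496 in the others. Ighg3 was 74.1 FPKM in WT 2, 3.56 in Apoe_KO 4 and 0.0416 to 0.652 in the others. Ighg1, typical of type 2 responses, was 22.7 FPKM in WT 2, 0.988 in Apoe_KO 4 and 0 to 0.291 elsewhere, 0 in 4 of those 7. WT 2 therefore exceeded Apoe_KO 4 by 4.55-fold for Ighg2b, 20.8-fold for Ighg3 and 23.0-fold for Ighg1, but by 1.11-fold for Ighm. For Ighd, WT 2 was lower, at 0.803 times the level of Apoe_KO 4. These are ratios of 1 library to another and have no replicate check.

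**Figure D1:**
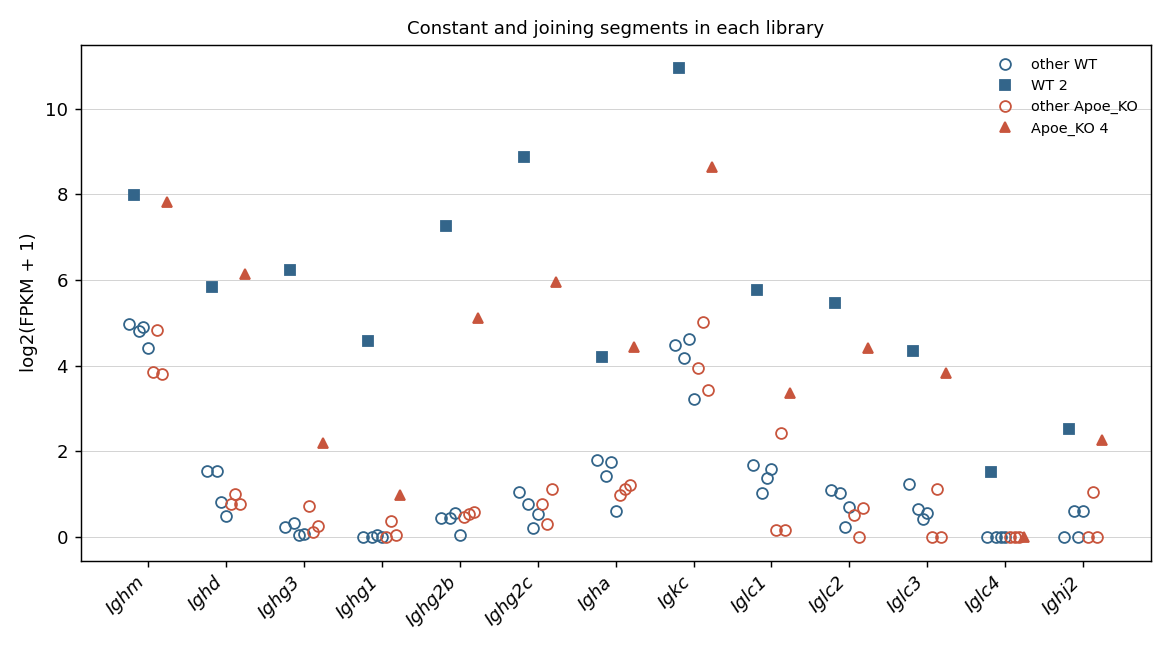
Level of the 12 constant segments and Ighj2 in each library as log2(FPKM + 1), with 1 symbol per library: open circles for the 4 other WT (blue) and 3 other Apoe_KO (red) libraries, a filled square for WT 2 and a filled triangle for Apoe_KO 4. WT 2 is the highest for Igkc (1977 FPKM), all IgG genes and the lambda genes, while Apoe_KO 4 is slightly above WT 2 for Ighd and Igha.

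The lambda constant genes were lower throughout. Iglc1, joined to Iglv1, was 2.23, 53.6, 1.05, 1.61 and 2.01 FPKM in WT and 0.113, 4.39, 0.117 and 9.24 FPKM in Apoe_KO. Iglc2 was 43.4 FPKM in WT 2, 20.5 in Apoe_KO 4 and 0 to 1.16 in the others, and Iglc3 was 19.4, 13.1 and 0 to 1.34 FPKM. Iglc4 was above 0 in WT 2 alone, at 1.87 FPKM. The joining segment Ighj2 was 4.71 FPKM in WT 2, 3.81 in Apoe_KO 4 and 0 to 1.08 in the others.

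Isotype use was expressed as the share of each gene in the summed heavy constant FPKM of a library, which divides reads by annotated exonic length. That length is 1326 bases for Ighg2c, against 2678 for Ighg2b, 2592 for Ighg1 and 2512 for Ighg3. FPKM thus gives Ighg2c more weight against the other IgG genes than reads do. Ighm made up 83.6%, 24.2%, 84.5%, 88.2% and 93.4% in WT 1 to WT 5 and 79.8%, 89.4%, 77.0% and 54.4% in Apoe_KO 1 to Apoe_KO 4. The 4 IgG genes together made up 4.40%, 68.7%, 4.16%, 2.21% and 2.43% in WT and 10.3%, 3.52%, 11.1% and 23.9% in Apoe_KO. IgM thus led in 8 of 9 libraries and IgG in WT 2, where Ighg2c alone was 44.7%. Ighd made up 16.7% in Apoe_KO 4, 5.37% in WT 2 and 1.82% to 6.03% elsewhere, and the ratio of Ighm to Ighd was 3.25 in Apoe_KO 4, 4.50 in WT 2 and 14.0 to 51.4 in the others. Igha held 1.68% in WT 2, 4.97% in Apoe_KO 4 and 2.40% to 7.74% in the others.

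Among the 7 other libraries the IgG share rested on 15 to 70 reads each. It was 3.30% ± 1.14 (SD, n = 4) in WT and 8.31% ± 4.17 (SD, n = 3) in Apoe_KO, with Apoe_KO 2 (3.52%) below WT 1 (4.40%) and WT 3 (4.16%), so the groups overlapped. Within the IgG genes, Ighg2c made up 65.0% in WT 2 and 61.4% in Apoe_KO 4, and 21.7% to 84.3% in the others. The order of Ighg2c and Ighg2b depended on the unit: by reads, which are not divided by gene length, Ighg2c was 32.5% of the heavy constant total in WT 2 and still led its IgG, while Ighg2b led in Apoe_KO 4 with 49.5% of IgG against 44.2% for Ighg2c. In Apoe_KO 1 the leading IgG gene by reads was Ighg3, with 45.7%. By FPKM, Ighg3 and Ighg1 made up 10.4% and 3.17% of IgG in WT 2 and 3.58% and 0.995% in Apoe_KO 4.

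**Figure D2:**
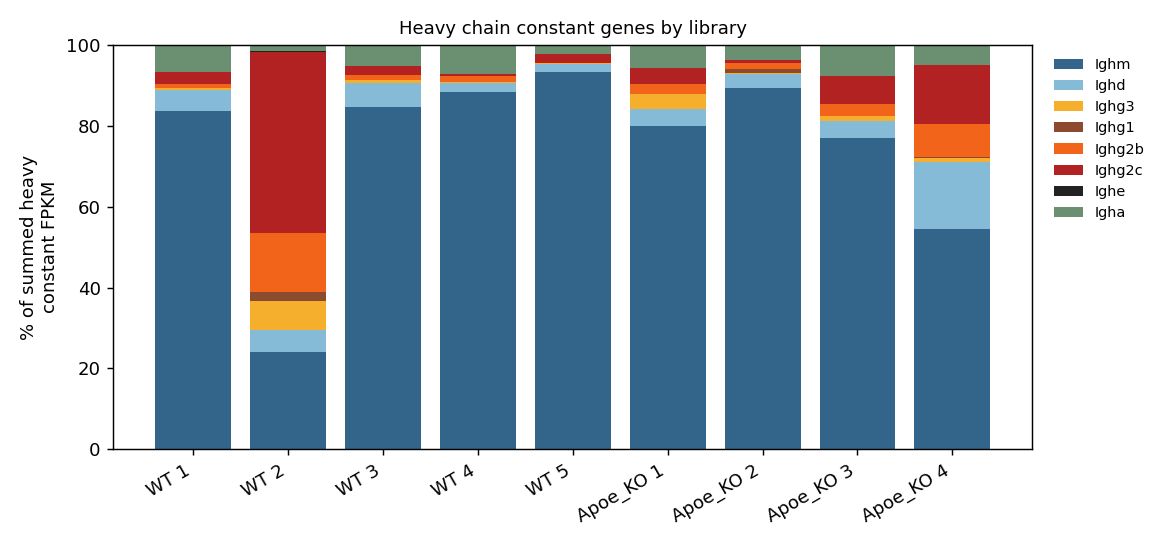
Share of each heavy constant gene in the summed heavy constant FPKM of a library, as stacked bars that add up to 100%, 1 bar per library. Ighm (dark blue) makes up 77.0% to 93.4% of 7 bars, 54.4% of Apoe_KO 4 and 24.2% of WT 2, where Ighg2c (dark red) is 44.7%.

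Kappa dominated the light chains, as is usual in the mouse. Its share of the summed light constant FPKM was 81.8%, 94.4%, 86.4%, 91.7% and 72.8% in WT and 96.5%, 85.0%, 93.2% and 90.2% in Apoe_KO. The summed light constant level was 2.01 times the heavy one in WT 2, 1.05 times in Apoe_KO 4 and 0.522 to 1.21 times in the others. The ratio of summed V to constant level was 1.67 for the heavy chain in WT 2, 1.06 in Apoe_KO 4 and 0.529 to 0.889 in the others, while for kappa it was 1.40, 1.28 and 1.14 to 1.75.

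V use was described by reads recovered from the FPKM values, as shares within a chain. The V segments held 29049 reads in WT 2 and 6705 in Apoe_KO 4, against 166 to 591 in the others, so shares in those 7 libraries are rough; 95% intervals are Clopper-Pearson and cover counting error only, since reads are not independent molecules. The number of V segments with at least 1 read was nearly equal in WT 2 (147) and Apoe_KO 4 (145), and 43 to 81 in the others. In all, 3 segments had a read in all 9 libraries, namely Igkv1-117, Iglv1 and Ighv9-3.

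WT 2 was dominated by a few V segments. Ighv1-74 took 39.5% (95% interval 38.6% to 40.5%) of its 10549 heavy V reads, Ighv1-26 13.6% and Ighv7-1 8.00%, together 61.2%. Igkv4-72 took 29.8% (29.2% to 30.5%) of its 17576 kappa V reads, Igkv9-124 29.4% and Igkv19-93 9.85%, together 69.1%. By FPKM the order of the first pair turned, with 31.2% for Igkv9-124 and 27.7% for Igkv4-72. In FPKM, Ighv1-74 was 698.7 in WT 2 and 20.8 in Apoe_KO 4, and it was 0 in 5 of the other libraries. Igkv4-72 was 767.4 FPKM in WT 2, 1.36 in Apoe_KO 4 and at most 0.924 elsewhere. Igkv9-124 was 862.2 FPKM in WT 2 and 2.31 in Apoe_KO 4, and its next highest level, 5.66 FPKM, was in Apoe_KO 1.

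Apoe_KO 4 used its V segments more evenly. Its first heavy segment, Ighv1-81, took 8.57% (7.59% to 9.64%) of 2964 reads, followed by Ighv1-53 at 6.07% and Ighv10-3 at 5.97%. Its first kappa segment, Igkv1-135, took 8.96% (8.02% to 9.96%) of 3439 reads, followed by Igkv12-46 at 6.63% and Igkv4-57-1 at 5.87%. Ighv1-81 was 39.4 FPKM in Apoe_KO 4 and 3.18 in WT 2. Igkv4-57-1 was 29.5 FPKM in Apoe_KO 4, 0.473 in WT 2 and 0 in the rest.

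The effective number of V segments, the inverse Simpson index, says how many equally used segments would give the same concentration. For the heavy chain it was 5.26 in WT 2 and 29.3 in Apoe_KO 4, and for kappa 5.23 and 27.3. Depth was then set equal by exact rarefaction. At 68 heavy reads, 19.1 segments were expected in WT 2 and 33.0 in Apoe_KO 4, with 16.9 to 29.1 in the others. At 91 kappa reads, 18.7 were expected in WT 2 and 36.7 in Apoe_KO 4, with 11.9 to 31.6 in the others. At these depths Apoe_KO 4 held more members than every other library in both chains, while WT 2 lay within the range of the other 7. Only the 152 V members were counted, and 77 of these had their highest FPKM in WT 2 and 70 in Apoe_KO 4. Rarefaction was not run over all annotated V segments, so this order describes the chosen members and is no result on V richness.

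**Figure D3:**
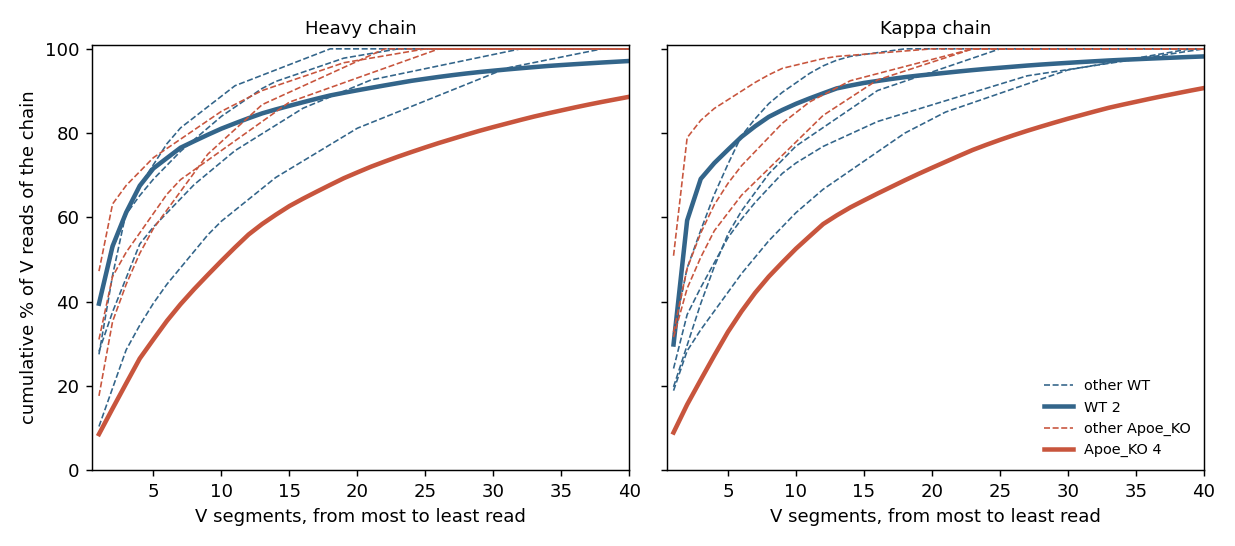
Cumulative share of the heavy (left) or kappa (right) V reads of each library over its V segments, ordered from the most to the least read within that library and shown up to the fortieth place. Thick solid lines are WT 2 (blue) and Apoe_KO 4 (red), thin broken lines the other 4 WT and 3 Apoe_KO. WT 2 passes 60% within 3 segments in both chains, while Apoe_KO 4 rises most slowly, with 20.6% (heavy) and 21.5% (kappa) in its first 3.

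The V segments that led in WT 2 and in Apoe_KO 4 were largely different. Of the 10 most read heavy segments, 2 were in both lists of 10 (Ighv1-26 and Ighv1-74), and of the 10 most read kappa segments 3 were (Igkv1-117, Igkv1-135 and Igkv10-96). The shared part of the read distributions was 34.5% for heavy and 26.9% for kappa. Across segments, which share a library and are not replicates, the Spearman correlation of the shares was 0.44 over 76 heavy and 0.40 over 73 kappa segments. On log2(FPKM + 1), 35 of the 165 members were at least 4-fold higher in WT 2 than in Apoe_KO 4 and 8 at least 4-fold higher in Apoe_KO 4, where 0.427% and 0.21% of all 15703 genes of at least 1 FPKM in 1 library were. Against the highest of the other 7 libraries, 67 members were at least 4-fold higher in WT 2 (0.955% of all such genes) and 53 in Apoe_KO 4 (0.745%). Because these libraries chose most members, nothing is read from those excesses. The 8 were Ighv2-9-1, Ighv11-2, Ighv1-53, Ighv8-8, Ighv1-81, Igkv4-57-1, Igkv5-39 and Igkv6-25, all V segments. The 35 included Igkc, Iglc1 and all 4 IgG genes.

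In the other 7 libraries the leading heavy segments differed from each other, while Igkv1-110 led kappa in 2 of them. For the heavy chain, Ighv1-81 led WT 1 with 10.4% of 154 reads, Ighv4-1 led WT 3 with 28.2% of 149, Ighv1-39 led WT 4 with 40.3% of 181 and Ighv7-3 led WT 5 with 27.5% of 80. Ighv1-59 led Apoe_KO 1 with 31.0% of 87 reads, Ighv1-80 led Apoe_KO 2 with 47.3% of 182, and Ighv1-26 and Ighv1-55 tied in Apoe_KO 3 with 17.6% of 68. Over the 9 libraries, 8 different heavy segments came first, counting Ighv1-26 for the tie; only Ighv1-81 did so more than once, in WT 1 and Apoe_KO 4.

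For kappa, Igkv1-110 led WT 1 with 24.1% of 203 reads, Igkv4-86 led WT 3 with 18.9% of 180, Igkv15-103 led WT 4 with 32.3% of 223 and Igkv4-59 led WT 5 with 19.8% of 91. Igkv9-124 led Apoe_KO 1 with 32.8% of 119 reads and Igkv1-110 led Apoe_KO 3 with 31.6% of 95. In Apoe_KO 2, Igkv1-117 took 50.9% (45.8% to 56.0%) of 389 reads and Igkv10-94 28.0%, the lowest effective number of all 9 libraries for kappa (2.92). The heavy chain of the same library also had the lowest effective number (3.89). Igkv1-110, the near-identical copy of Igkv1-117, had 1.80% there.

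**Figure D4:**
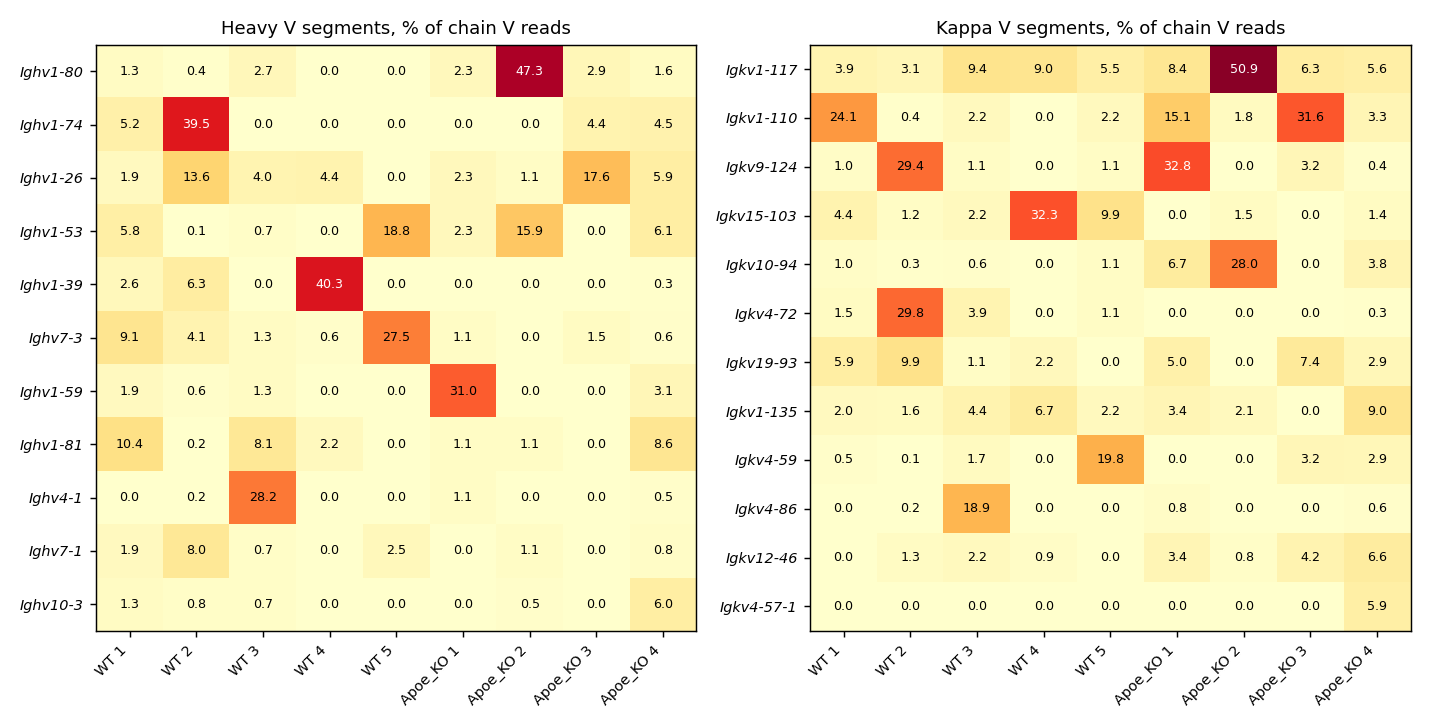
Share of selected heavy (left) and kappa (right) V segments in the V reads of their chain, 1 column per library and 1 row per segment, with the percentage printed in each cell and darker colour for larger shares. Rows are the first segment of each library, the 5 with the highest mean share, and the first 3 of WT 2 and of Apoe_KO 4. Most rows have a single dark cell, such as Ighv1-39 in WT 4 (40.3%) and Igkv1-117 in Apoe_KO 2 (50.9%).

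By family, Ighv1, the largest heavy V family of C57BL/6 mice with 38 of the 76 heavy members, took 74.9% of heavy V reads in WT 2, 55.4% in Apoe_KO 4 and 29.5% to 81.9% in the others. The family Igkv1, with 7 members, took 6.18% of kappa V reads in WT 2, 18.6% in Apoe_KO 4 and 12.1% to 54.8% in the others. Igkv4, with 16 members, took 31.1%, 16.4% and 3.86% to 33.0%. Of the 3 lambda V segments, Iglv1 led in 8 of 9 libraries, with 67.9% of 924 lambda V reads in WT 2 and 59.3% of 302 in Apoe_KO 4. Iglv3 led in Apoe_KO 3, where 3 lambda reads were found.

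Some V segments are known as partners in natural antibodies, and these were looked up after the values had been seen. Ighv11-2 with Igkv14-126, and Ighv12-3 with Igkv4-91, form the phosphatidylcholine-binding antibodies of B-1 cells, a B cell type of the body cavities. Reads of Ighv11-2 numbered 14, 2, 0, 15 and 2 in WT 1 to WT 5 and 0, 0, 1 and 40 in Apoe_KO 1 to Apoe_KO 4. Reads of Igkv14-126 numbered 13, 14, 0, 35 and 9 in WT and 0, 0, 0 and 6 in Apoe_KO. Both were among the 3 most read segments of their chain in WT 1 and in WT 4, with 9.09% and 8.29% of heavy reads for Ighv11-2 and 6.40% and 15.7% of kappa reads for Igkv14-126.

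Ighv12-3 had 67 reads in WT 2 and 31 in Apoe_KO 4, and Igkv4-91 had 9 and 32; in the others both had 0 to 6. Ighv7-1, the heavy segment of the T15 antibody against phosphorylcholine, had 844 reads in WT 2, 25 in Apoe_KO 4 and 0 to 3 elsewhere. Its T15 partner Igkv7-33 was below the threshold, with 2 reads in WT 2 and 0 in the other 8 libraries. Bulk counts do not show which heavy and light chains came from the same cell. The summed B-1 cell gene list (Zbtb32, Bhlhe41, Cd5, Spn, Cd9, Plscr1 and Cd300lf) was 136.1 to 159.7 FPKM in all 9 libraries, most of it from Cd9 (115.8 to 149.3 FPKM), which many other cells express. Cd5 was 5.17 FPKM in WT 2, 3.34 in Apoe_KO 4 and 0.0990 to 0.488 elsewhere. Spn was 4.38, 3.65 and 0.416 to 0.804 FPKM, and Cd300lf 0.742, 1.08 and 0.0103 to 0.126 FPKM. These 3 genes were thus high in WT 2 and Apoe_KO 4, and T cells also express Cd5 and Spn. The other genes of the list were not high in both. Bhlhe41 was 5.35 FPKM in WT 2, 3.19 in Apoe_KO 4 and 3.98 to 6.35 elsewhere. Plscr1 was 4.30, 5.93 and 2.74 to 4.99 FPKM, and Zbtb32 0.948, 0.462 and 0.203 to 0.776 FPKM.

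Genotype was tested with limma on log2(FPKM + 1) over the 13383 genes that reached 1 FPKM in 4 or more libraries, of which 983 (7.35%) passed an adjusted p of 0.05, 459 higher (3.43%) and 524 lower (3.92%) in Apoe_KO. Of the 165 members, 25 (17 V and 8 C) passed the filter on low values, and 0 of these passed the test. By limma 1 had an unadjusted p under 0.05, and limma with voom on the recovered reads called 0 as well. The other 140 members were not tested. In bulk tissue, fewer cells of a type and less RNA per cell cannot be told apart. The spread was wide: the median standard error of the 25 was 1.06 on the log2 scale against 0.106 for all tested genes, and their median log2 fold change was -0.25 against -0.07. Of all 165 members, tested or not, 0 had groups that did not overlap. The groups did not overlap for 12.4% of the 13383 tested genes, a share that is no measure for members left untested. Members were chosen by their highest value, which for most lay in the library that stood apart in WT or in Apoe_KO. That choice made overlap likely, so nothing on genotype is read from this count.

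With WT 2 and Apoe_KO 4 left out, 13 members were tested and 0 passed (all genes 2.81%, with 1.54% higher and 1.27% lower), while 3 had an unadjusted p under 0.05 by limma. These were Ighm, Iglv2 and Igkv14-126. Iglv2 and Igkv14-126 reached 1 FPKM in WT libraries alone, as did 3 of the 13, so the filter took them for being high in WT and their direction is no result. Ighm was 26.7 ± 4.50 FPKM (SD, n = 4) in the remaining WT and 18.0 ± 8.24 (SD, n = 3) in the remaining Apoe_KO, a log2 fold change of -0.61 with a standard error of 0.26 and an adjusted p of 0.230 by limma. Apoe_KO 2, at 27.5 FPKM, lay inside the WT range. Igkc had a log2 fold change of 0.02 with a standard error of 0.44 over the same 7 libraries. The erythroid genes (Hba-a1, Hba-a2, Hbb-bs, Hbb-bt and Alas2), which mark residual blood, summed to 162.1 to 1006 FPKM in these WT and 36.6 to 222.0 in these Apoe_KO libraries. Their median log2 fold change was -2.25, with adjusted p of 0.0884 to 0.158 by limma, and the part of blood in the values of Ighm was not tested.

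Iglv2, a lambda V segment, was 1.38, 30.7, 1.02, 0 and 1.32 FPKM in WT and 0, 0, 0 and 6.55 in Apoe_KO. Its log2 fold change without WT 2 and Apoe_KO 4 was -0.87 with a standard error of 0.30 and an adjusted p of 0.156 by limma. Igkv14-126 was 1.84, 2.30, 0, 5.11 and 1.35 FPKM in WT and 0, 0, 0 and 0.913 in Apoe_KO. It had reads in 4 of 5 WT and in 1 of 4 Apoe_KO libraries, and WT 3, at 0, lay with the Apoe_KO libraries. It reached 1 FPKM in 4 WT libraries alone and entered the test through them, so neither its direction nor its call without WT 3 is evidence of a difference. Over all 9 libraries its log2 fold change was -1.18 with a standard error of 0.46 and an adjusted p of 0.148 by limma; without WT 3 it was -1.53 with an adjusted p of 0.0309, and over the alternatives the adjusted p ranged from 0.0309 to 0.370. With both apart libraries left out and no filter, limma called 1 member and 87 of 29084 genes (0.299%; 0.203% higher). The member was Ighv1-19, which had 3 to 5 reads in Apoe_KO 1 to Apoe_KO 3 and 0 in the 4 WT, while WT 2, left out there, had its highest level of all 9 libraries (4.65 FPKM).

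B cell genes were high in the same libraries as the segments. The B cell list of 13 genes holds Ighd, itself a segment, and the summed level of the 12 others was 214.3 FPKM in WT 2, 247.1 in Apoe_KO 4 and 2.52 to 11.2 in the remaining libraries. Cd79a, a signalling chain of the B cell receptor, was 54.2 FPKM in WT 2 and 65.1 in Apoe_KO 4, and 0.510 to 2.78 elsewhere. The ratio of WT 2 to Apoe_KO 4 ran from 0.692 to 1.37 over the 12 genes, with a median of 0.820, while Igkc was 4.99-fold and Ighg2c 7.64-fold higher in WT 2.

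Of the genes of antibody assembly and secretion, Jchain, Mzb1 and Derl3 were higher in WT 2 than in Apoe_KO 4, but not all of this list of 16 genes were: it summed to 655.3 FPKM in WT 2 and 647.4 in Apoe_KO 4, and Hspa5 (113.0 against 176.2 FPKM), Creld2 (14.4 against 20.7) and Xbp1 (49.5 against 58.7) were higher in Apoe_KO 4. Jchain, which links IgM and IgA into polymers, was 1.87, 81.4, 0.886, 2.06 and 0.961 FPKM in WT and 0.733, 2.57, 0.802 and 20.6 FPKM in Apoe_KO. Mzb1, a chaperone of plasma cells, was 27.0 FPKM in WT 2, 7.83 in Apoe_KO 4 and 0.119 to 0.615 elsewhere, and Derl3 was 2.66, 0.847 and 0.0787 to 0.437 FPKM. WT 2 thus exceeded Apoe_KO 4 by 3.96-fold for Jchain, 3.45-fold for Mzb1 and 3.13-fold for Derl3. For Pou2af1, a B cell coactivator that is part of the plasma cell list, WT 2 exceeded Apoe_KO 4 by only 1.03-fold. The summed plasma cell list of 10 measured genes was 215.3 FPKM in WT 2, 152.0 in Apoe_KO 4 and 64.0 to 97.0 in the others, and it includes Xbp1 (35.8 to 58.7 FPKM over the 9 libraries) and Sdc1 (13.4 to 22.5 FPKM), which other cells of the aorta also express. The part of cell makeup in the isotype and V differences was not tested.

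Rgs13, a germinal centre gene, was 3.55 FPKM in WT 2, 0.461 in Apoe_KO 4 and 0 to 0.130 elsewhere. Genes of lymphoid tissue stroma were high in WT 2 and Apoe_KO 4: Glycam1, made by the high endothelial venules of lymph nodes, was 8.46 and 8.45 FPKM against 0 to 0.0746, and Cxcl13, the chemokine that draws B cells, was 34.3 and 48.0 FPKM against 4.02 to 9.53. The summed T cell list was 117.5 FPKM in WT 2, 108.2 in Apoe_KO 4 and 6.54 to 26.5 in the others. Ccl21a, a chemokine of lymphatic vessels and lymphoid stroma, did not follow them and was 41.4 to 48.0 FPKM in WT 4, WT 5 and Apoe_KO 2 and 0.924 to 6.00 elsewhere. Dntt, an enzyme of lymphocyte precursors that adds bases at the joins, was 2.29 FPKM in WT 3, 1.20 in Apoe_KO 3, 4.56 in Apoe_KO 4 and 0.0476 to 0.481 elsewhere, and Rag1 was highest in the same 3 libraries, while Igll1 and Vpreb2, parts of the surrogate light chain of B cell precursors, were at 0 in all 9. Vpreb1, of the same chain, was 0 to 0.347 FPKM and above 0 in 6 libraries, and Vpreb3 was 2.88 FPKM in WT 2, 3.49 in Apoe_KO 4 and 0 to 0.741 elsewhere. How far neighbouring lymphoid tissue contributed was not tested.

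**Figure D5:**
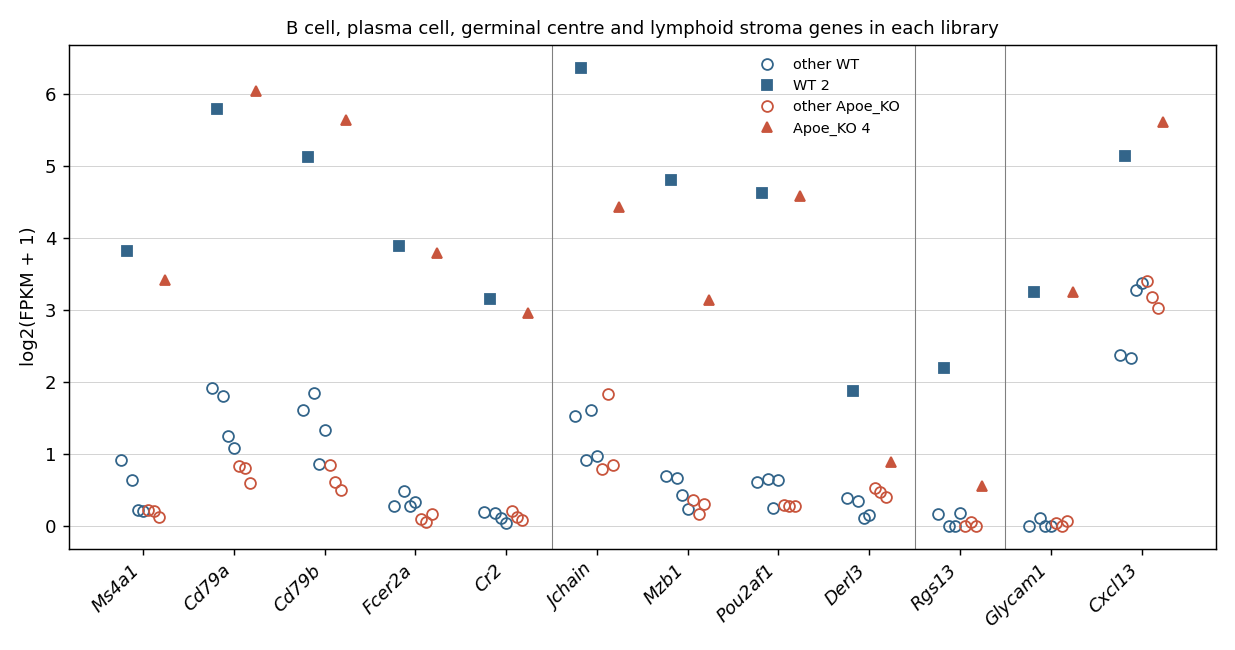
Level of B cell (Ms4a1 to Cr2), plasma cell (Jchain to Derl3), germinal centre (Rgs13) and lymphoid stroma (Glycam1 and Cxcl13) genes in each library as log2(FPKM + 1), with symbols for WT 2 (filled square), Apoe_KO 4 (filled triangle) and the other 4 WT and 3 Apoe_KO libraries (open circles). WT 2 and Apoe_KO 4 lie close together for B cell genes, such as Cd79a at 54.2 and 65.1 FPKM, and WT 2 lies above for Jchain, Mzb1, Derl3 and Rgs13.

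The pathway lists were tested over all 9 libraries, where 7.35% of all tested genes passed (3.43% higher and 3.92% lower). For B cell receptor signalling 14 of 19 genes were tested and 0 passed, 0 higher and 0 lower, with a median log2 fold change of -0.08 against -0.07 for all tested genes. Of the B cell list 3 of 13 were tested, Ighd among them, and 0 passed. For antibody assembly and secretion 14 of 16 were tested and 2 rose: Hspa5, the endoplasmic reticulum chaperone BiP that holds heavy chains, by 0.58 ± 0.10 (SE) on the log2 scale with an adjusted p of 0.00899 by limma, and Creld2, another reticulum protein, by 0.45 ± 0.11 with an adjusted p of 0.0389. Both are expressed widely in the vessel wall: Hspa5 was 93.5 to 113.0 FPKM in WT and 132.9 to 176.2 in Apoe_KO.

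Irf4, a transcription factor of plasma cells and also of macrophages, rose by 1.62 ± 0.28 (SE) on the log2 scale in Apoe_KO (adjusted p of 0.0114 by limma), from 2.88 to 8.30 FPKM in WT to 13.3 to 22.0 in Apoe_KO. It was the only 1 of 5 tested plasma cell genes to pass, and its level did not follow Jchain or the segments: WT 2 was at 7.09 FPKM and Apoe_KO 3 at 22.0. Of the 6 tested Fc and immunoglobulin receptor genes, Fcgr3, an activating IgG receptor of macrophages, rose by 0.62 ± 0.14 (SE; adjusted p of 0.0294 by limma). Of 3 tested germinal centre genes, S1pr2, which holds germinal centre B cells in place and is also made by vessel cells, fell by 0.52 on the log2 scale (SE 0.13; adjusted p of 0.0371 by limma), and it was 1.96 to 2.98 FPKM in WT and 0.939 to 1.65 in Apoe_KO. With WT 2 and Apoe_KO 4 left out, Hspa5 and Irf4 kept an adjusted p under 0.05 by limma (0.0283 and 0.0390). Both lost it where those libraries and the filter were left out (0.0734 and 0.0970), and Hspa5 with the replicate block (0.111). Without those libraries the log2 fold changes of Creld2 (0.42), Fcgr3 (0.51) and S1pr2 (-0.41) were close to those above, but with adjusted p of 0.0638, 0.119 and 0.115 by limma. Single libraries also ended these calls: WT 1, WT 3, WT 4, WT 5, Apoe_KO 1 or Apoe_KO 4 for Creld2 (adjusted p up to 0.0975), WT 1, WT 2, WT 3, Apoe_KO 3 or Apoe_KO 4 for Fcgr3 (up to 0.0973), and each but Apoe_KO 1 for S1pr2 (up to 0.0836).

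Of the lists of other cell types, 0 of 5 tested T cell, 0 of 2 lymphoid stroma, 0 of 3 B-1 cell, 0 of 1 B cell precursor, 0 of 5 erythroid and 0 of 6 smooth muscle genes passed. Among 7 macrophage genes Cd14, a coreceptor for bacterial lipopolysaccharide, rose by 1.20 ± 0.25 (SE; adjusted p of 0.0238 by limma). Among 6 adipocyte genes 2 fell, Lep (leptin) by 1.74 on the log2 scale (SE 0.38; adjusted p of 0.0276 by limma) and Plin1 (a lipid droplet coat protein) by 0.56 (SE 0.15; adjusted p of 0.0466 by limma). With WT 2 and Apoe_KO 4 left out, Lep kept an adjusted p under 0.05 (0.0390 by limma), while Cd14, at a log2 fold change of 1.05 (0.0934), and Plin1, at -0.64 (0.0848), did not.

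In the 7 libraries without WT 2 and Apoe_KO 4, 3 of the 13 B cell genes (Cd79a, Cd79b and Ighd) were tested and 0 passed, with an unadjusted p under 0.05 for 2 by limma (Cd79a and Cd79b). Cd79a was 2.78, 2.48, 1.36 and 1.11 FPKM in WT 1, WT 3, WT 4 and WT 5 and 0.773, 0.739 and 0.510 FPKM in Apoe_KO 1 to Apoe_KO 3, so that these groups did not overlap, as for 12.6% of all tested genes in this direction. Its log2 fold change was -0.77 with a standard error of 0.22 and an adjusted p of 0.0994 by limma. Cd79b had a log2 fold change of -0.76 with a standard error of 0.23 and an adjusted p of 0.117 by limma. Both genes reached 1 FPKM in WT libraries alone and entered the test through them, so their direction is no result. Of the 12 B cell genes other than Ighd, filtered or not, 11 had a higher mean in the 4 WT than in the 3 Apoe_KO libraries. In 4 of them, Cd79a and Cd79b included, the WT values all lay above the Apoe_KO values. Most of the 12 did not pass the filter, so the 12.6% is no measure for them. The share of all genes with a higher mean in WT was not computed, so nothing is read from these counts. The erythroid genes, given with Ighm, had negative log2 fold changes over the same 7 libraries, all 5 of them, and 0 passed. Their values overlapped between the genotypes, with a sum of 222.0 FPKM in Apoe_KO 3 above 162.1 in WT 4. The part of residual blood in these differences was not tested.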

How the data were processed

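RNA of 9 mouse aortas was sequenced, 5 WT and 4 Apoe_KO. The authors deposited 1 table of 33293 gene identifiers whose header names no unit. The deposited values were taken as FPKM because each value times the exonic length in GENCODE mouse release 21 gave near-whole reads for 1 depth in each library (to 0.1 read for 97.6% to 97.9% of values up to 50 reads, and for 100.0% of segment values, where chance gives 20%). Per the submitters' processing notes the build was GRCm38 and limma was used, with no version or role. Aligner, counter and strand use, not given in the sources used here, could not be checked. Reads that match several segments equally well may have been dropped or split, which would lower or mix V segments with close copies.

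Symbols and positions came from GENCODE mouse release 21, in which 33240 identifiers were found. The genotype test was limma 3.58.1 (R 4.3.3) with trend and robust variance on log2(FPKM + 1), with no further term, for genes that reached 1 FPKM in 4 or more libraries (3 or more where an Apoe_KO library was left out), and Benjamini-Hochberg at 0.05. The pseudocount understates changes of low genes. The design allowed for counts or normalized values, and the unit decided for the latter. The script was tested on simulated data. Isotype shares, V shares, effective numbers and rarefaction were computed in Python 3.11.15 with no test. Alternatives were each library left out, WT 2 and Apoe_KO 4 left out, a replicate block, other pseudocounts, filters, scalings and weights, and, added after seeing the data, voom on recovered reads and no filter without WT 2 and Apoe_KO 4. Named V segments were the 5 with the highest mean share per chain, the first of each library, and those called by limma; segments outside this rule (the partners in natural antibodies, segments of lower rank, the 8 higher in Apoe_KO 4 and members with an unadjusted p under 0.05) were chosen after their values were seen. Members and lists were chosen with earlier results of these data known. No row matched Fam46c or Fdcsp. Some listed genes are not reported here.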

Additional observations from a re-analysis of the deposited data

Results flagged for a closer look

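A library was singled out where its gap to the nearest library of its genotype was a large part of the whole range of that genotype (over 0.71 of the range for 5 WT, over 0.829 for 4 Apoe_KO), on log2(FPKM + 1) for genes. Of 96 groups of values examined, 50 met this, 31 through WT 2, 18 through Apoe_KO 4 and 1 through another library. Chance gives about 1 in 20 for independent values, but these genes vary together and were chosen by their highest values or shares. The count is therefore a description and is not weighed against chance. Groups of the 3 remaining Apoe_KO libraries are too small for this rule. The part of each gap that comes from the choice of members by their highest value was not tested.

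WT 2 stood apart among the WT libraries in its constant and joining segments, with gaps as parts of the range of 0.818 for Igkc, 0.903 for Ighg2c, 0.988 for Ighg1, 0.957 for Ighg3, 0.928 for Ighg2b, 0.80 for Ighd, 0.841 for Ighm, 0.862 for Iglc1, 1.0 for Iglc4, 0.753 for Ighj2, 0.796 for Iglc3 and 0.832 for Iglc2. Among its V segments the gaps were 0.857 for Ighv1-26, 0.849 for Ighv1-59, 0.883 for Ighv1-74, 0.771 for Ighv1-80, 0.801 for Igkv1-117, 0.759 for Igkv1-135, 0.882 for Igkv10-94, 0.736 for Igkv10-96, 0.746 for Igkv14-111, 0.826 for Igkv19-93, 0.901 for Igkv4-72, 0.961 for Igkv9-124, 0.809 for Iglv1, 0.749 for Iglv2 and 0.792 for Iglv3. Among its summary values they were 0.86 for the Ighm share of heavy constant FPKM, 0.967 for the IgG share, 0.823 for the ratio of light to heavy constant level and 0.871 for the log2 summed level of all members.

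Apoe_KO 4 stood apart among the Apoe_KO libraries in its constant segments, with gaps of 0.859 for Ighg2c, 0.976 for Ighg2b, 0.953 for Ighd, 0.845 for Iglc2 and 0.931 for Igha. Among its V segments the gaps were 1.0 for Ighv1-39, 0.879 for Ighv1-74, 0.928 for Ighv1-81, 0.888 for Ighv4-1, 0.892 for Ighv7-3, 0.923 for Igkv10-96, 1.0 for Igkv14-126, 0.87 for Igkv4-59, 1.0 for Igkv4-72, 0.904 for Igkv4-86, 1.0 for Iglv2 and 0.902 for Iglv3. Among its summary values the gap was 0.936 for the Ighd share of heavy constant FPKM, where it held 16.7% against 3.32% to 4.17% in the other 3.

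WT 1 stood apart in the effective number of heavy V segments, with a gap of 0.756 of the range: it was 20.7 in WT 1, 5.26 in WT 2, 8.94 in WT 3, 5.14 in WT 4 and 6.79 in WT 5. WT 1 held 154 heavy V reads.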

How the results depend on the processing

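The Ighm, IgG and kappa shares, the share of the first V segment and the effective numbers moved by less than the SD of their genotype. The alternatives were reads and FPKM exchanged, no Ighd and Ighe, V segments of at least 10 reads, and all annotated V segments. This is a weak check, since WT 2 or Apoe_KO 4 is part of that SD and can widen it. For the IgG share of WT the SD was 29.3, and 1.14 without WT 2. Without Ighd and Ighe, the Ighm share of Apoe_KO 4 went from 54.4% to 65.4% and its IgG share from 23.9% to 28.7%. The order of genes was not kept: by reads Ighg2b led the IgG of Apoe_KO 4 and Ighg3 that of Apoe_KO 1, and by FPKM Igkv9-124 led the kappa segments of WT 2. The 7 libraries with few V reads (166 to 591) limit any statement on their rarer segments. Calls over all genes depended on the setting: 983 in the result given, 376 without WT 2 and Apoe_KO 4, 445 with no filter, 582 with a filter of 10 FPKM, 1757 with library weights, 87 with no filter and without both libraries, and 382 to 1238 with 1 library left out (382 without Apoe_KO 3, 1238 without Apoe_KO 2); the causes were not tested. Median centring gave 630 higher and 269 lower, and quantile normalization 485 and 240. Members called numbered 0 to 1 with 1 library left out (Igkv14-126 without WT 3, tested through WT libraries alone) and 1 with no filter and without both libraries (Ighv1-19). With the replicate block 183 genes and 0 members were called. The deviations of same-numbered libraries from their genotype means had correlations of 0.26, -0.27, -0.13 and -0.22 for numbers 1 to 4. Only that of number 1 was positive.

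Fold changes of the constant genes listed here, the V segment Igkv1-117, Jchain and Cd79a, none past the threshold, changed sign with single libraries. With 1 library left out they ran from -1.35 to 1.14 on the log2 scale for Igkc, -1.25 to 0.30 for Ighm, -1.20 to 1.08 for Ighd, -0.86 to 0.54 for Igha, -1.56 to 0.32 for Ighg2c, -1.38 to 0.10 for Iglc1, -0.061 to 1.57 for Igkv1-117, -1.12 to 0.72 for Jchain and -1.62 to 0.56 for Cd79a; in all but Ighg2c and Igkv1-117 the ends were without Apoe_KO 4 and without WT 2. Without both libraries, filtered or not, Igkc was at 0.018 and Ighd at -0.25. Ighd was at -0.26 with the replicate block and -0.058 with library weights. Igha was at 0.042 with median centring and 0.064 with quantile normalization. Ighg2c was at 0.058 with voom on recovered reads and at 0.086 with no filter and without both libraries.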
